A study of Homo sapiens with 6 samples.

Results

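The cytochrome P450 genes of 2 tandem arrays were followed through LaminB1 region lists: CYP4B1, CYP4A11, CYP4X1, CYP4Z1 and CYP4A22 of the CYP4 cluster on chromosome 1, and CYP2C18, CYP2C19 and CYP2C8 of the CYP2C cluster on chromosome 10. Members were chosen by family and position, with earlier results of these data known. That gave 8 of the 19974 protein-coding genes of the RefSeq table, 5 in the CYP4 and 3 in the CYP2C cluster. The lists came from CUT&RUN, in which an antibody directs a nuclease to cut out the chromatin it binds, which places LaminB1 reads at chromatin close to the nuclear lamina. The cells were HCT116, a human colorectal carcinoma line in which both TOP2A alleles carry the mAID degron. The control group, labelled wildtype, was the TOP2A mAID line, and the treatment text names no auxin for it. The double loss group was the TOP2A mAID/TOP2B -/- line, made from the degron line with CRISPR/Cas9, and received auxin (500 uM, 8 h) to degrade TOP2A, with elimination of up to 95% according to the design text. Palbociclib (2 uM, 28 h) arrested the cells of both groups in G1. There were 2 LaminB1 libraries and an IgG library per group, and the lists of the 4 LaminB1 libraries are described. Knockout line, auxin and control library differ together between the groups and cannot be told apart. Nothing in the labels says that replicates were separate cultures, so p-values measure only the spread between these libraries, which may be technical. Region lists hold no expression and no protein, so neither the cell type nor the loss of TOP2A and TOP2B was checked.

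P450 enzymes are heme proteins, many in the endoplasmic reticulum and some in mitochondria, that insert an oxygen atom into fatty acids, steroids, retinoids and drugs. The CYP4 enzymes hydroxylate fatty acids at or near the end of the chain, and the CYP2C enzymes oxidise many drugs and epoxidise arachidonic acid. Both families grew by tandem duplication and are used mainly in liver and kidney, with some members in lung, brain or breast. Tissue-restricted gene clusters that a cell does not use often lie at the lamina.

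The 4 lists held 10771 to 13599 regions on a 1 kb grid, covering 549 to 622 Mb with 7263458 to 8351031 LaminB1 reads. Where the rest of the text speaks of covered share, it means the percent of a gene body or span that lies inside called regions. Total library depth is unknown, because reads are given inside regions only. Control library reads inside regions were denser in the double loss lists, at 8.83 and 8.86 reads per kb against 6.93 and 6.97. The part of that difference in the results below was not tested.

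Both clusters lay at LaminB1 regions in all 4 lists, between neighbours that did not. The CYP4 span, 351 kb from the first base of CYP4B1 to the last of CYP4A22 (chromosome 1, 46799046 to 47149727, hg38), was covered at 64.7% and 52.5% in control 1 and 2. In double loss 1 and 2 it was covered at 61.5% and 65.2%, so the groups overlapped. Chromosome 1 as a whole was covered at 19.3% to 21.4%. The CYP2C span, 386 kb (chromosome 10, 94683729 to 95069497), was covered at 85.0% and 73.8% in the controls. Both double loss lists lay above, at 94.0% and 92.7%, against 21.7% to 23.4% for chromosome 10 as a whole. The group means were 63.4% ± 2.62 against 58.6% ± 8.67 for CYP4 and 93.4% ± 0.916 against 79.4% ± 7.88 for CYP2C (SD, n = 2 each). The differences of 4.77 and 14.0 percentage points had exact permutation p-values of 0.667 and 0.333 (two-sided), and 0.333 is the smallest that the 6 assignments of 2 against 2 libraries allow. Without control 2 the CYP4 difference was -1.36 points, and without control 1 it was 10.9. The CYP2C difference ranged from 8.42 to 19.6 points when 1 library was left out.

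**Figure D1:**
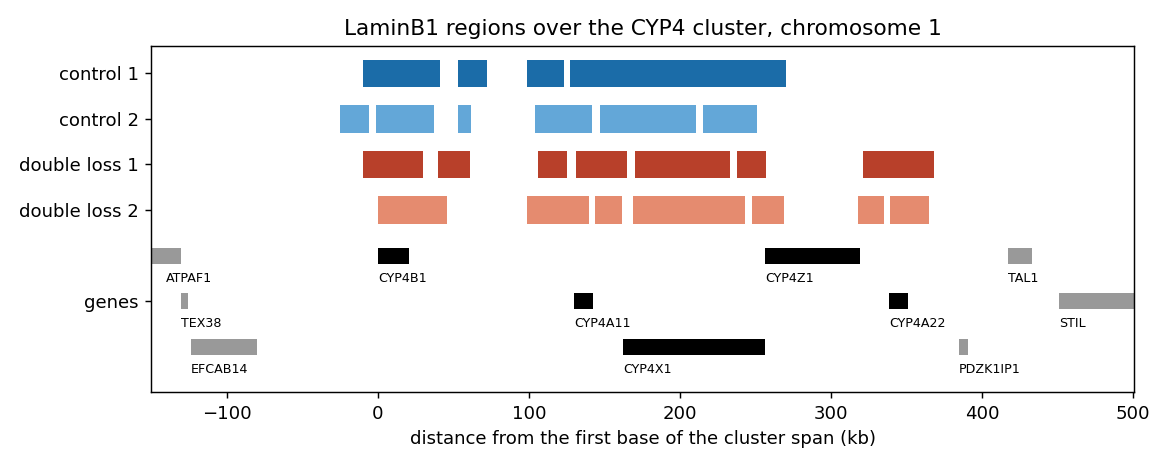
Called LaminB1 regions (coloured bars, 1 row per list) over the CYP4 cluster and 150 kb on each side, with member genes in black and neighbouring protein-coding genes in grey; the x axis is the distance from the first base of the span in kb. Regions over CYP4A22, at the right end of the span, appear in each double loss list but in no control list.

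**Figure D2:**
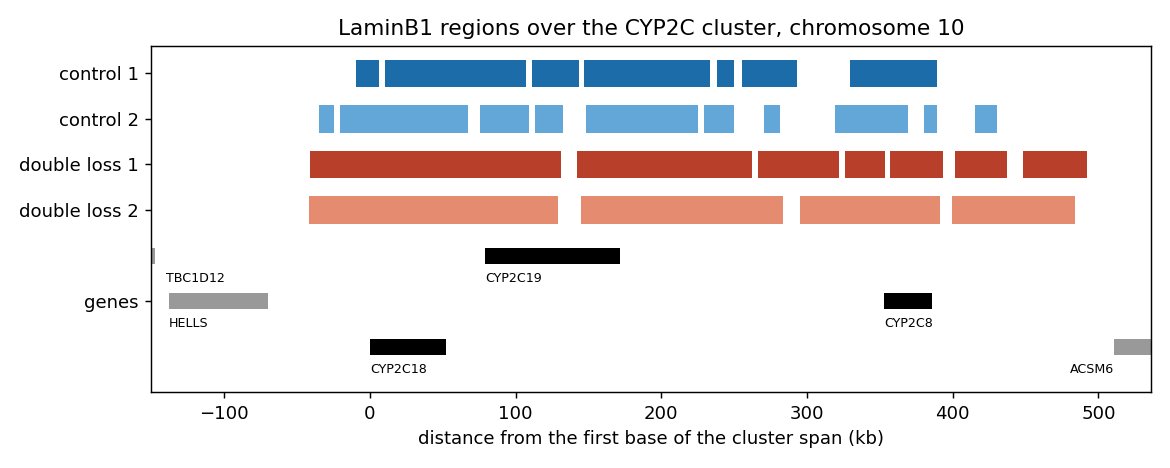
The same for the CYP2C cluster; members in black, neighbours in grey, and not every annotated gene of the span is drawn. The double loss lists hold 5 and 3 regions over the span against 7 and 8 in the controls, and they run farther past CYP2C8 than either control list.

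Promoters of the members lay on both sides of region edges. The windows of 4 members are printed, 2 that were inside regions in all lists and 2 that were not. RefSeq windows of 250 bases before to 50 after a start (GRCh38.p14) were found for 5 of the 8 members, with 2 windows for CYP4X1. CYP4A11, CYP4A22 and CYP2C18 had none in the table used. Capitals mark TATAAA, the TATA box core, and CAAAGTCC, a core of sites for HNF4 factors, searched on both strands. The motifs do not overlap each other in these windows. The windows of CYP2C19 (chr10:94762431-94762730, + strand) and CYP2C8 (chr10:95069448-95069747, - strand) were fully inside regions in all 4 lists. That of CYP4B1 (chr1:46798796-46799095, + strand) was fully inside in 3 lists and at 31.7% in double loss 2, whose region starts at 46799001. That of CYP4Z1 (chr1:47066981-47067280, + strand) was inside in control 1 and double loss 2 and outside in the other two. It lies within the listed gene body, which begins at 47055525, and not at its first base.
CYP2C19: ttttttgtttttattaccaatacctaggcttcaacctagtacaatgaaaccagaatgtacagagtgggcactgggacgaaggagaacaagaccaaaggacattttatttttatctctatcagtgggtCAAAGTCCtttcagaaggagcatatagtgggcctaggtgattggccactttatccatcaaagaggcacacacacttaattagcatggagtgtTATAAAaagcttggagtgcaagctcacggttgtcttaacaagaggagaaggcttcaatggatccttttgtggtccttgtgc
CYP2C8: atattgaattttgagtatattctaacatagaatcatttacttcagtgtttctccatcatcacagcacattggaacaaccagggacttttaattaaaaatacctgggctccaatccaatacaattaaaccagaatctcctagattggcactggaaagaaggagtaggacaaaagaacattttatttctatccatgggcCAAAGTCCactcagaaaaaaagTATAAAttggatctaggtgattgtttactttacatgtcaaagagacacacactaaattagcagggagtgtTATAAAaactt
CYP4B1: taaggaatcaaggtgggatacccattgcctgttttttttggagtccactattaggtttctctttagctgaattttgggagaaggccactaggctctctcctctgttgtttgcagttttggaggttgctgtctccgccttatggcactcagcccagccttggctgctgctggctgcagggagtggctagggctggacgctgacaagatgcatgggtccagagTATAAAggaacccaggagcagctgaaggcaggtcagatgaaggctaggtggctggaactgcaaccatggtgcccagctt
CYP4Z1: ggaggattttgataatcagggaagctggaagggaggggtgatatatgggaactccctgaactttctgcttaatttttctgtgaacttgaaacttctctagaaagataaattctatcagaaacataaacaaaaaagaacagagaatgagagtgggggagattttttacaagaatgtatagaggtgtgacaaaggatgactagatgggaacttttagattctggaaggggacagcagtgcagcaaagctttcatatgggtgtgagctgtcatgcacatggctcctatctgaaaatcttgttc
The CYP2C19 and CYP2C8 windows aligned locally with 170 identical of 226 aligned positions (75.2%). Both hold 1 copy of CAAAGTCC, which 1.20% of the 35116 RefSeq windows hold on either strand. It begins at position -123 from the listed start in CYP2C19 and at -53 in CYP2C8. TATAAA, present in 11.5% of all windows, begins at -31 in both, again at 40 in CYP2C8, and at -29 in CYP4B1. The letters around the CYP2C19 copy at -31 match those around the CYP2C8 copy at 40, not those around the CYP2C8 copy at -31. The CYP4Z1 window holds neither motif. Of the CYP4X1 windows, the one at 46961114 to 46961413 was inside regions in 3 lists and outside in double loss 2. The one at 47023419 to 47023718 was inside regions in all 4 and lies within the listed gene body. A letter match is a description and was not tested for binding.

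Along the CYP4 cluster the gene bodies fell into 3 kinds: covered in every list, nearly uncovered, and covered in the double loss lists only. CYP4B1, a lung enzyme (46799046 to 46819413), was inside regions over 100% of its body in all 4 lists. When every list was kept to the same number of regions by log2 fold, it was at 0% in control 2, and with the upper 50% it was at 0% in every list. CYP4A11, a main fatty acid omega-hydroxylase of liver and kidney (46929188 to 46941476), was at 100% and 96.1% in the controls and 93.4% and 79.9% in the double loss lists. CYP4X1, an enzyme found in brain (46961364 to 47055432), was at 100% and 89.97% against 89.4% and 87.6%. In both genes the double loss lists lay below the controls by small amounts, and region breaks of a few kb set these values. The differences of -11.4 and -6.49 points did not pass (limma adjusted p = 0.531 and 0.589). For CYP4A11 it was -18.2 points without double loss 1 and -4.68 without double loss 2, and for CYP4X1 -1.47 without control 1 and -11.5 without control 2. CYP4Z1, known from mammary tissue (47055525 to 47118318), was at 21.5% and 0% in the controls and 0.758% and 22.0% in the double loss lists. Its values spread as widely within each group as between them, and its mean was 10.7% ± 15.2 against 11.4% ± 14.997 (SD, n = 2 each; limma adjusted p = 1.0). Without control 1 its difference was 11.4 points and without control 2 -10.1.

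CYP4A22, a close relative of CYP4A11 with little known activity (47137441 to 47149727), was the member that differed most. It was at 0% in control 1 and control 2, at 100% in double loss 1 and at 95.4% in double loss 2. The groups did not overlap, and the nearest control region ended 68.4 kb before the gene in control 1 and 87.4 kb before it in control 2. The difference of 97.7 points ranked 30 from the top of the 3058 covered genes and did not pass the threshold (limma adjusted p = 0.0509 over all covered genes). CYP4A22 entered that fit only through its double loss values. With double loss 1 or double loss 2 left out the difference was 95.4 or 100 points, and with either control left out it was 97.7. With untransformed shares limma gave an adjusted p = 0.0397, and with 10 kb added to each side of the gene 0.106. Limma adjusted p-values were 0.386 with the replicate number in the fit and 0.600 with equal region numbers. With only regions at an authors' adjusted p of 0.01 or below, limma gave an adjusted p = 0.584.

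The regions over CYP4A22 were among the weaker ones of their lists. In double loss 1 a single region of 47 kb (47120001 to 47167000) held 543 LaminB1 reads and 414 control library reads. Its log2 fold of LaminB1 over control library, a value of the authors, was 0.33, above 13.8% of that list's regions. In double loss 2 a region of 26 kb (47138001 to 47164000) held 281 and 239 reads, with a log2 fold of 0.16 that exceeded only 0.784% of its list. The authors' adjusted p of that region was 0.0369, so with regions kept only at 0.01 or below CYP4A22 was at 100% and 0% in the double loss lists. When only the upper 50% of each list by log2 fold was kept, no list covered the gene. A further region of double loss 2 (47117001 to 47134000), which ends before CYP4A22, had a log2 fold of 0.62, above 75.5% of its list. Control library reads over the 2 regions that cover the gene were at 8.81 and 9.19 per kb, beside 8.86 and 8.83 over all regions of those lists. The antisense lncRNA gene CYP4A22-AS1 (47095540 to 47179623), which overlaps CYP4A22, was at 0% in both controls and at 55.9% and 51.1%.

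**Figure D3:**
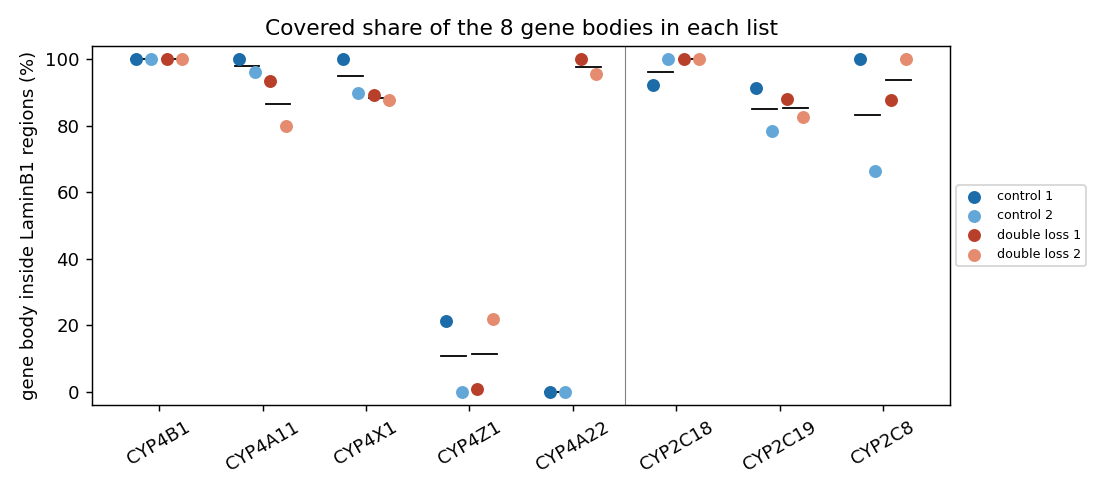
Share of each gene body inside LaminB1 regions (y axis, percent) for the 8 members in chromosome order; points are lists, black bars group means, and the vertical line separates CYP4 from CYP2C. CYP4A22 is at 0% in both controls and at 95.4% and 100% in the double loss lists, while the lists of both groups overlap for 5 members.

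Uncalled stretches inside the CYP4 span recurred in all lists. No list held a region from 46871001 to 46898000 (27 kb), inside the pseudogene CYP4Z2P, or from 47069001 to 47117000 (48 kb), inside CYP4Z1, of which CYP4Z2P is a copy. These 2 stretches make up 75 kb, or 21.4%, of the span, and CYP4Z2P was covered at 7.63% to 37.4% over the lists. The lists hold no reads outside regions, so whether reads were few there or could not be placed between the copies was not tested. Sequence called in all 4 lists made up 138 kb (39.3%) of the CYP4 span. Sequence called in each double loss list but in no control list made up 31 kb, and all of it but the 5 kb from 46840001 to 46845000 lay after CYP4Z1. The reverse pattern held for 5 kb, of which 4 kb lay in CYP4X1.

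The CYP2C genes were covered in all 4 lists. CYP2C18, expressed in skin and other epithelia (94683729 to 94736190), was at 92.4% and 100% in the controls and at 100% in both double loss lists. CYP2C19, which oxidises proton pump inhibitors (94762681 to 94855547), was at 91.4% and 78.5% against 88.2% and 82.8%. CYP2C8, which oxidises taxanes and epoxidises arachidonic acid (95036772 to 95069497), was at 100% and 66.4% against 87.8% and 100%. The groups overlapped or met for each of the 3 genes. Their differences were 3.81, 0.54 and 10.7 points, with limma adjusted p-values of 0.589, 1.0 and 0.879. Without control 2, the list with full cover of CYP2C18 in that group, the CYP2C18 difference was 7.62 points. CYP2C8 and CYP2C19 then turned to -6.11 and -5.92 points. Without control 1 these genes were at 27.5 and 6.999 points.

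The difference in the CYP2C span lay mostly between the member genes. Sequence called in all 4 lists made up 258 kb, or 66.7% of the span, and every kb of the span was inside a region in at least 1 list. Sequence called in each double loss list but in no control list made up 33 kb, against 1 kb for the reverse. The longest such stretch, 24 kb from 94979001 to 95003000, lay between CYP2C19 and CYP2C8 and holds the lncRNA gene LOC107984256, at 0% in both controls and 100% in both double loss lists. The span was cut into fewer and wider regions in the double loss lists. Control 1 and 2 held 7 and 8 regions with a median width of 38 and 27.5 kb. Double loss 1 and 2 held 5 and 3, with 56 and 138 kb, and their widest was 172 and 171 kb, wider than 96.2% and 95.9% of all regions in those lists. Over whole lists the median width was 30 and 22 kb in control 1 and 2 and 29 kb in both double loss lists. The number of regions in the CYP2C span differed between groups without overlap, but how often spans elsewhere do so was not counted. In the CYP4 span the order was the other way, with 4 and 5 regions in the controls and 7 in each double loss list.

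LaminB1 read density over both clusters lay a little below that of all regions in every list. Regions over the CYP2C span held 11.4 and 12.4 LaminB1 reads per kb in control 1 and 2, against 12.4 and 13.2 over all their regions. In double loss 1 and 2 they held 13.0 and 13.3, against 13.4 in both lists as a whole. In the CYP4 regions the controls had 11.5 and 12.3 and the double loss lists 11.9 and 12.1. The authors' log2 folds are comparable within a list only. Their median over the CYP2C regions was 0.57 and 0.64 in the controls, where all regions had 0.55 and 0.60. It was 0.62 and 0.59 in double loss 1 and 2, where all regions had 0.51 and 0.50. Over the CYP4 span the median was 0.53 and 0.62 in the controls and 0.40 in both double loss lists, below the medians of the latter. The CYP4B1 region was weak in control 2, at 0.28, above only 6.20% of that list. Control library reads in the CYP2C regions were at 6.33 and 6.47 per kb in the controls and 8.26 and 8.30 in the double loss lists, and in the CYP4 regions at 6.75 and 6.94 against 8.59 and 8.60.

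At 3 of their 4 outer edges the clusters reached farther in the double loss lists. Edges elsewhere in the genome were not counted, so this is not shown to be particular to the P450 clusters. The double loss lists also covered more sequence as a whole, at 610 and 622 Mb against 594 and 549 Mb in the controls. Within 150 kb of the CYP4 span, called sequence ran from 46789001 to 47069000 in control 1 and from 46774001 to 47050000 in control 2. It ended at 47167000 in double loss 1 and 47164000 in double loss 2, 16.6 and 19.6 kb before PDZK1IP1, against 115 and 134 kb in the controls. On the other side the ends were 69.9 and 54.9 kb from EFCAB14 in the controls and 69.9 and 79.9 kb in the double loss lists, which met control 1 at 1 value and reached no farther than either control. PDZK1IP1 encodes a small membrane protein of kidney and EFCAB14 an EF-hand protein, and neither was covered in any list. Around CYP2C, called sequence ended at 95073000 in control 1 and 95114000 in control 2. In double loss 1 and 2 it ended at 95176000 and 95168000, which left 18.2 and 26.2 kb to the acyl-CoA synthetase family gene ACSM6 against 121 and 80.2 kb. The first region began 60.1 and 35.1 kb after HELLS, a chromatin remodeller gene, in the controls and 29.1 and 28.1 kb after it in the double loss lists. Much of the sequence called past CYP2C8 lies in the lncRNA gene LOC107984257 (95103532 to 95228778), at 0% and 8.36% against 49.1% and 51.5%. With 50 kb on each side of the CYP2C span the controls were at 70.2% and 68.8% and the double loss lists at 91.7% and 90.9%, a difference of 21.8 points (exact permutation p = 0.333).

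Genes beside the clusters were mostly outside regions. None of the 18 protein-coding genes within 500 kb of the CYP4 span was covered in any list. The nearest are EFCAB14, TEX38, ATPAF1 and MOB3C before it and PDZK1IP1, TAL1, STIL and CMPK1 after it. Near the CYP2C span PLCE1, a phospholipase gene, was at 6.49% and 0% in the controls and at 7.38% and 13.0% in the double loss lists (limma adjusted p = 0.589). HELLS, TBC1D12, NOC3L, ACSM6 and PDLIM1 were at 0% in every list. Each P450 cluster was thus a called block between nearest neighbours that were uncovered in all 4 libraries.

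**Figure D4:**
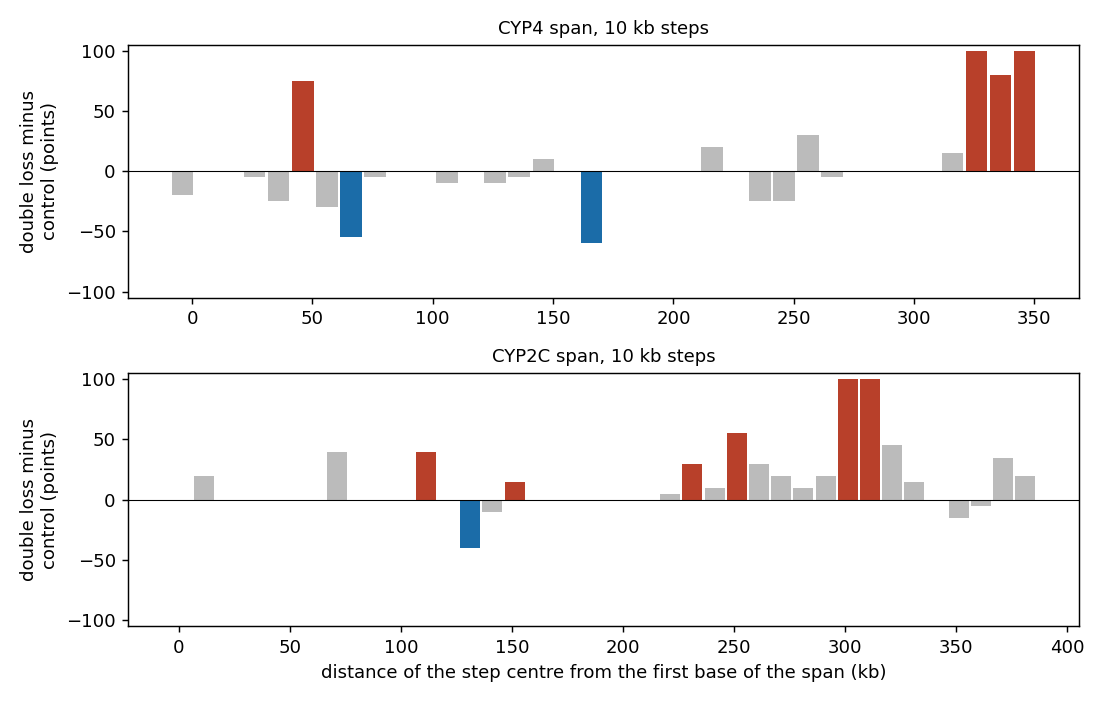
Difference in covered share, double loss minus control group mean (y axis, percentage points), for each 10 kb step of the CYP4 span (top) and the CYP2C span (bottom) by distance from the first base of the span in kb. Red bars are steps with both double loss lists above both controls, blue bars the reverse and grey bars overlap; red bars gather at the CYP4A22 end and, in CYP2C, between CYP2C19 and CYP2C8.

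In 10 kb steps the differences were local. The CYP4 span touched 36 steps, of which 31 were covered in at least 1 list, 9 were full in all 4 and 5 were empty in all 4. Both double loss lists lay above both controls in 4 steps and below both in 2. Over the genome 95092 steps were covered in at least 1 list, and the double loss lists lay above both controls in 10.8% and below both in 7.55% of them. Of the 4 higher steps 3 were the last of the span, from 47120001 to 47150000, and the other was at 46840001 to 46850000, at the start of CYP4Z2P. The 2 lower steps began at 46860001 and 46960001. The CYP2C span touched 39 steps, all covered in at least 1 list and 17 full in all 4. Here 6 steps lay higher and 1 lower, and 4 of the 6 fell between 94910001 and 95000000, with the steps at 94980001 and 94990001 at 0% in both controls and 100% in both double loss lists. Without control 1 or control 2 the higher steps of CYP2C numbered 15 and 10. In CYP4 they numbered 7 without control 1, and the lower steps 4, 6 and 7 without control 2, double loss 1 and double loss 2. The lower steps of CYP2C numbered 2 without control 2 and 3 without double loss 2. With a list left out fewer lists must meet the rule, so these counts could only stay or rise. The genome shares were not recounted for fewer lists. Neighbouring steps share regions and are not independent.

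Set beside all covered genes, the members were well covered, and apart from CYP4A22 they differed little between groups. They were chosen with earlier results of these data known, so their high cover is a description and no test against all genes. Gene bodies at 50% or more in all 4 lists were 6 of 8 members, and 854 of 3058 covered genes (27.9%). The median group mean of the members was 89.96% for control and 91.2% for double loss, against 43.3% and 49.2% over covered genes. Their median difference was 0.59 points, near the 0.77 points over all covered genes. The double loss lists lay above both controls for 1 member, below both for 2 and overlapped for 5. Over covered genes 21.5% lay above and 13.9% below. Across the genes of the fit, limma called none of the 8 at an adjusted p under 0.05, with 1 (CYP4A22) at an unadjusted p under 0.05, where over covered genes 51 (1.67%) were called higher and 30 (0.981%) lower. An unadjusted p under 0.05 was found for 476 of the 3058 covered genes in limma, so 1 of 8 members is no more than that background. A difference of at least 90 points was found for CYP4A22 and for 36 of 3058 genes in all (1.18%).

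**Figure D5:**
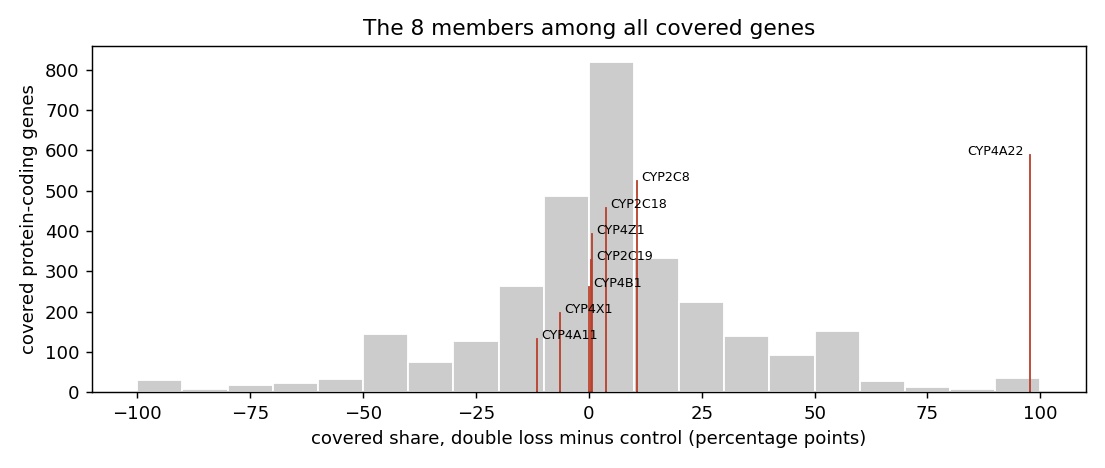
Histogram of the difference in covered share, double loss minus control (x axis, percentage points, bins of 10), over 3058 covered protein-coding genes, with the 8 members marked by red lines whose heights only separate the names. CYP4A22 stands at 97.7 points and the other members lie between -11.4 and 10.7.

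Of 67 genes in 4 lists of other P450 genes and their partners found in the table, 7 were covered in any list, where 3058 of all 19974 protein-coding genes were. This share lies somewhat below that of all genes, was not tested and is no result about P450 genes. None of the 7 other CYP4 genes, CYP4F2, CYP4F3, CYP4F8, CYP4F11, CYP4F12, CYP4F22 and CYP4V2, was covered. Of 18 other genes of families CYP1 to CYP3 the only covered one was CYP2J2, an arachidonic acid epoxygenase, at 73.7% and 82.6% against 37.8% and 88.1%. Of 22 P450 genes of steroid, bile acid, retinoid and prostanoid metabolism 2 were covered. Both lay higher in the double loss lists without passing, where 21.5% of all covered genes lay above both controls and 13.9% below. CYP39A1, an oxysterol hydroxylase of bile acid synthesis, was at 0% in both controls and at 46.9% and 16.5% in the double loss lists, through which alone it entered the fit (limma adjusted p = 0.269). CYP7B1, of the same pathway, was at 31.1% and 27.2% against 45.9% and 34.9% (limma adjusted p = 0.589). Of 20 redox partners and regulators 4 were covered: CYB5A, FDX1, NR3C1 and FOXA2. FDX1, the ferredoxin that feeds electrons to mitochondrial P450 enzymes, was at 22.2% and 0% against 25.0% and 33.4%. NR3C1, the glucocorticoid receptor gene, was at 10.2% and 0% against 0% and 15.6%. CYB5A, the cytochrome b5 gene, was at 61.2% to 100% with overlapping groups. FOXA2, a pioneer factor of liver and gut endoderm on chromosome 20, fell from 99.9% and 100% to 0% and 0.067% (limma adjusted p = 0.0156). Chromosome 20 as a whole was lower in the double loss group, at 12.8% against 34.6%, and its part in the FOXA2 value was not tested. FOXA2 was the only gene of these lists that limma called, where 1.67% of all covered genes were called higher and 0.981% lower.

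Among genes of at least 20 kb more than 1 Mb away, likeness to a cluster was taken as the sum of absolute differences in covered share over the 4 lists. GRM8, a metabotropic glutamate receptor gene on chromosome 7, was most like the CYP2C span, at 85.6%, 73.4%, 91.4% and 94.8% and a sum of 5.82 points. NLRP14 on chromosome 11 followed with 11.6 points and RBMS3 on chromosome 3 with 13.3 points, of 2243 genes ranked. For the CYP4 span the nearest were CCDC192 on chromosome 5, C4orf51 on chromosome 4 and IQCJ-SCHIP1 on chromosome 3, at 14.0, 14.1 and 14.4 points. All these values rest on the same 4 libraries.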

How the data were processed

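LaminB1 CUT&RUN libraries gave read pairs of 75 bp, per the labels' protocols; Bowtie2 2.3.4.3, Picard and hg38 were used, per the submitters' processing notes. What called the regions is not given in the sources used here. Read counts per region, for LaminB1 and for a control library, were deposited without normalization, per the file headers. The log2 fold and the score were deposited per the file headers; as tested, the score is 100 times the log2 fold, which is log2 of the ratio of the 2 counts less 1 constant per list. The p-value and adjusted p-value per region were deposited by the authors, per the file headers. Where 2 lists share a region's edges, the control counts were equal in 105 of 105 cases within groups and in 3 of 154 between them, so each group had a control library of its own.

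Files were matched to samples by genotype and replicate number in their names. Regions on other chromosomes than 1 to 22 and X, 1 or 2 per list, were left out. Covered share is the percent of a gene body, span or 10 kb step inside regions, computed with Python 3.11.15, pandas 2.3.3 and numpy 2.4.6. Gene positions came from RefSeq GRCh38.p14, which shares its primary coordinates with hg38; all 8 members matched by symbol. Gene body shares of the genes covered in at least 1 list were arcsine square root transformed and fitted with limma 3.58.1 (R 4.3.3; trended variance; Benjamini-Hochberg adjustment, threshold 0.05). The fit was tried on simulated normal values with a common spread. Unlike the real shares these had no lower or upper bound, so the fit was not tested for genes at those bounds. Span shares were compared by exact permutation. Alternatives left out each library, blocked on replicate number, changed scale, flanks, step size and the regions kept. Promoter windows were aligned with Biopython 1.88. Named besides the members were up to 4 neighbours per side, up to 3 genes of each other list by difference of means, CYB5A beyond it, and the 3 genes most like each span; the noncoding genes were chosen after their values were seen. Members and lists were chosen with earlier results of these data known. Some genes in or near the CYP2C span are not reported here.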

Additional observations from a re-analysis of the deposited data

How the results depend on the processing

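The count of genes called by limma, 51 higher and 30 lower, depended on single libraries and on the fit. Leaving out control 1, control 2, double loss 1 or double loss 2 gave 157, 106, 377 or 346 higher and 223, 228, 125 or 121 lower. With the replicate number as a block limma called 0 in both directions, with 328 genes at an unadjusted p under 0.05. The labels do not say what the replicate numbers pair, so they were left out of the main fit. The deviations of equally numbered replicates correlated at -0.020 over genes. With 10 kb flanks limma also called 0 in both directions, with 543 at an unadjusted p under 0.05, and with an equal number of regions per list it called 26 higher. The fit with no filter on uncovered genes could not be made with a trended variance. The CYP4 span difference was -3.56 points when only the upper 50% of each list by log2 fold was kept and 13.5 with equal region numbers, a setting that leaves control 1, the shortest list, whole. The CYP2C span difference was 32.2 points with the upper 50% and 21.8 with 50 kb flanks. Higher steps numbered 4 to 7 in CYP4 and 7 to 15 in CYP2C when 1 library was left out, and lower steps 2 to 7 and 1 to 3. Fewer lists must then meet the rule, so these counts could only stay or rise. With the upper 50% of regions CYP4 had 1 higher and 0 lower steps and CYP2C 13 and 0. Merging regions across gaps of at most 5 kb gave CYP4 1 lower and CYP2C 3 higher steps, and steps of 5 kb gave CYP4 7 higher. Of the members, CYP4A11 turned to 38.6 points and CYP2C19 moved to 44.3 with the upper 50%, where CYP4X1 was at -24.5 and CYP4B1 and CYP4A22 were uncovered in all lists. With equal region numbers CYP4X1 turned to 12.6 and CYP4B1 moved from 0 to 50 points, with control 2 at 0%. Leaving out 1 library put CYP4A11 at -18.2 to -4.68 points, CYP4X1 at -11.5 to -1.47, CYP4Z1 at -10.1 to 11.4 points, CYP2C19 at -5.92 to 6.999 and CYP2C8 at -6.11 to 27.5. The cause of these turns was not tested. CYP4A22 differed by 50 to 100 points wherever it was covered. No setting could reverse that direction, because both controls were at 0% and no setting could add control cover there. In the fits with 2 libraries per group the limma adjusted p of CYP4A22 ran from 0.0397 to 0.600.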
